A study of Mus musculus with 78 samples.

Results

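The NMDA receptor subunit genes Grin1, Grin2a, Grin2b, Grin2c, Grin2d and Grin3a were followed in bulk poly(A) RNA-seq of the mouse brain. The 6 genes were taken by symbol from the 55367 symbols listed in both deposited count tables, and all 6 were counted in every group of libraries. The series holds 78 libraries from 7 dissected regions of 12 mice, all on the C57BL6/J strain and all given ethanol. KO mice carried a constitutive, CRISPR-made deletion in Acss2, whose product converts acetate to acetyl-CoA, and their founders had been backcrossed for 3 generations. WT mice lacked the deletion. Each sex had 3 mice per genotype. The males were 1, 2 and 10 (KO) and 3, 12 and 13 (WT). The females were 4, 5 and 6 (KO) and 11, 23 and 24 (WT). Every adult mouse underwent the drinking-in-the-dark protocol, which elicits binge-like intake, first with a choice of water and 15% ethanol by volume and then with ethanol alone, in sessions of 2 h on days 1 to 3 and 4 h on day 4. No mouse without ethanol was analysed here, the ages in weeks are not given in the sources used here, and the deletion was present in every cell type, so the comparisons are between regions and between genotypes of drinking mice.

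NMDA receptors are glutamate-gated, calcium-permeable channels that also need glycine or D-serine and a depolarized membrane to open. Each receptor holds the obligatory glycine-binding subunit GluN1, encoded by Grin1, with glutamate-binding GluN2 subunits, encoded by Grin2a to Grin2d, and in some receptors the glycine-binding GluN3A subunit, encoded by Grin3a. GluN2B prevails early in forebrain development and GluN2A increases as synapses mature, so their proportion is a common description of receptor make-up, and ethanol inhibits these receptors.

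Of the 6 members, 3 matched the promoter table from RefSeq on GRCm38.p6, namely Grin1, Grin2c and Grin2d. Grin2a, Grin2b and Grin3a did not match. The 250 bases before the start in that table are shown for the 3 that matched, so the choice follows the table and not the spread of region means. For Grin2d that start lies within the gene as GENCODE M21 annotates it, so its window is not upstream of the longest extent of the gene. Capitals mark the GC box, GGGCGG or its reverse complement.
Grin1, minus strand, chr2:25319188-25319437: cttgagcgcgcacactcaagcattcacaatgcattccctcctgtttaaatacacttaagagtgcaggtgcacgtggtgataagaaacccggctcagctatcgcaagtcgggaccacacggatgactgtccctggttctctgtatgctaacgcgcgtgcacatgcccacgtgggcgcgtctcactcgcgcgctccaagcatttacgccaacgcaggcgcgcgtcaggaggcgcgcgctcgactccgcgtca
Grin2c, minus strand, chr11:115267244-115267493: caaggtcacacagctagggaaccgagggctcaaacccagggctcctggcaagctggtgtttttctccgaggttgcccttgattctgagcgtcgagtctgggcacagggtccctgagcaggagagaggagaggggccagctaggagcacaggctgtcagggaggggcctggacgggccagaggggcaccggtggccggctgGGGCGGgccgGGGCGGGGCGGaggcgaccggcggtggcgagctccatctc
Grin2d, minus strand, chr7:45866682-45866931: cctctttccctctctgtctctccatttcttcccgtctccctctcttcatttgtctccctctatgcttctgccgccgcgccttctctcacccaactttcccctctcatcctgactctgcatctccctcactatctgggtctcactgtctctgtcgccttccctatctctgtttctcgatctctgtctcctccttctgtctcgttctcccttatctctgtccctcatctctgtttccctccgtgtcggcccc

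Each motif was searched on both strands. The GC box was GGGCGG. The core of the cAMP response element was TGACG. One end of the REST element was TTCAGCACC. No motif contains another, and overlapping copies of a motif were counted separately. Grin2c held 3 copies of the GC box, and Grin1 and Grin2d held 0. Of 32851 promoter windows of the same length, 32.7% held a GC box on either strand. The response element core occurred in 2 copies in Grin1 and in 0 in Grin2c and Grin2d, against 17.8% of all windows with at least 1. The REST motif occurred in none of the 3 windows and in 0.301% of all windows. GC content was 58.8% in Grin1, 68.8% in Grin2c and 54.4% in Grin2d, beside a median of 52.4% over all windows.

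The members differ in transcript length and base composition. In the GENCODE M21 annotation of GRCm38, Grin1 lies on chromosome 2 from 25291181 to 25319187, Grin2a on chromosome 16 from 9567898 to 9995560 and Grin2b on chromosome 6 from 135713233 to 136173511. Grin2c lies on chromosome 11 from 115249169 to 115267243, Grin2d on chromosome 7 from 45831883 to 45878378 and Grin3a on chromosome 4 from 49661611 to 49845744. All 6 are protein-coding genes on the minus strand. The merged exons of Grin2b spanned 24.84 kb, those of Grin2a 17.93 kb and those of Grin3a 12.3 kb, with GC contents of 45.7%, 44.8% and 49.2%. Grin1, Grin2d and Grin2c had 9.7 kb, 6.66 kb and 5.04 kb of exon at 59.4%, 65.0% and 62.1% GC.

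Counts were scaled to CPM, the count divided by the total of the library and multiplied by 1e+06. Both striatal regions, the amygdala and the dorsal hippocampus were sequenced deeper, in 47 libraries of 4454420 to 14487778 counts. The cortex, ventral hippocampus and prefrontal cortex gave 31 libraries of 629635 to 1228828 counts, so region and depth cannot be told apart between these sets. Acss2 stood at 0.971 to 13.96 CPM in the KO libraries and 35.9 to 73.8 CPM in the WT libraries, with no overlap. Regional neuron markers or sex-linked genes went against the label in 8 libraries, called here libraries that stand apart. The dorsal striatum libraries of male KO mouse 10 and female WT mouse 23 had summed striatal projection neuron markers of 447 and 266 CPM against a region median of 6029 CPM. The ventral striatum libraries of male KO mouse 10 and male WT mouse 13 had 1085 and 477 CPM against 4806 CPM. Hippocampal markers were low in the dorsal hippocampus of female WT mouse 23 (226 against a median of 785 CPM) and the ventral hippocampus of male KO mouse 10 (84.0 against 407 CPM), and the ventral hippocampus of female KO mouse 6 held 4180 CPM of striatal markers against a median of 197 CPM. In the prefrontal cortex, the library labelled mouse 23, female WT, had 73.4 CPM of the Y-linked gene Ddx3y and 0 counts of Xist. The amygdala-enriched list summed to 52.9 to 310 CPM in the amygdala and 100 to 177 CPM in the ventral striatum, so it did not separate these regions. Its highest sum elsewhere was 86.4 CPM, above the lowest amygdala sum. No list of own markers was applied to the amygdala in naming the libraries that stand apart. Choroid plexus markers, which were not used to name these libraries, exceeded 10 times the region median in 10 libraries of 4 regions, at 879 to 9063 CPM, and cerebellar granule cell markers did so in 1 library, at 214 CPM. These libraries were kept, and the part of those markers in the results was not tested.

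**Figure D1:**
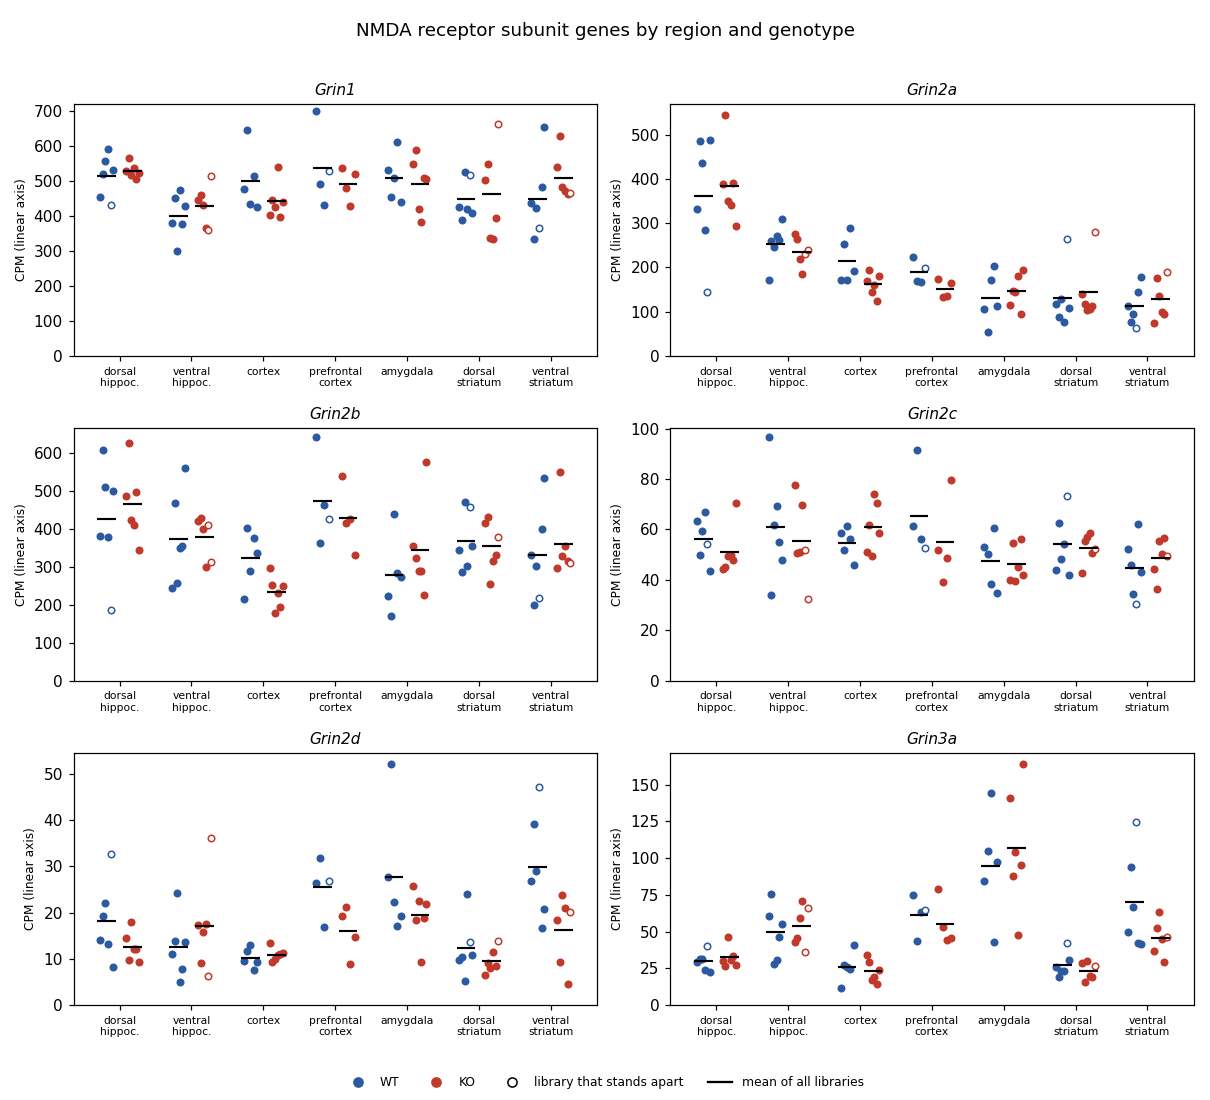
CPM of each NMDA receptor subunit gene on a linear axis, per library, by region and genotype; each point is a library, open points are the 8 libraries that stand apart, and bars are means over all libraries of the genotype and region. Grin2a was highest in the dorsal hippocampus and Grin3a in the amygdala, while KO and WT points overlapped in most regions.

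Per kilobase of exon, Grin1 was the most abundant member in each of the 7 regions, with region means of 42.7 to 53.7 CPM per kb. Grin2b had region means of 11.03 to 18.1 CPM per kb and Grin2a of 6.71 to 20.8 CPM per kb. Grin2c stood at 9.28 to 11.9, Grin3a at 1.98 to 8.26 and Grin2d at 1.59 to 3.48 CPM per kb. The order below Grin1 changed with region: in the dorsal hippocampus Grin2a (20.8 ± 6.05 CPM per kb, SD, n = 12) stood above Grin2b (17.9 ± 4.82), and in the ventral striatum Grin2b (13.9 ± 4.28) stood above Grin2c (9.28 ± 1.91) and Grin2a (6.71 ± 2.42). In the cortex Grin2c (11.5 ± 1.73, n = 11) stood above Grin2b (11.03 ± 2.94) and Grin2a (10.4 ± 2.61). Grin2c also exceeded Grin2a in the prefrontal cortex (11.9 against 9.55), the amygdala (9.29 against 7.75) and the dorsal striatum (10.6 against 7.67). Exon length was the merged length, so these levels depend on which transcripts are used.

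Each region was then compared with the mean of the other 6 in a single edgeR quasi-likelihood fit of all 78 libraries, with Benjamini-Hochberg adjustment over 15663 genes and a threshold of 0.05 on the adjusted p. Of the 42 member-by-region tests, 20 passed. The members called numbered 4 of 6 in the dorsal hippocampus, the amygdala and the ventral striatum, where 40.6%, 34.3% and 51.1% of all genes were called. They numbered 3 of 6 in the cortex and the dorsal striatum, where 44.1% and 53.7% of all genes were called, 2 of 6 in the ventral hippocampus, where 25.1% were called, and 0 of 6 in the prefrontal cortex, where 26.7% were called. With shares this high among all genes, the counts are no result about the members as a group, and the values below describe single genes. In bulk tissue, fewer cells of a type and less RNA per cell cannot be told apart.

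Of the 20 calls, 7 held under all 21 alternatives run: Grin2a in the dorsal hippocampus and the ventral striatum, Grin2d in the ventral striatum, and Grin3a in the amygdala, the cortex, the dorsal hippocampus and the dorsal striatum. The fit on WT libraries only, which are 38 of the 78, ended 12 calls, and offsets for exonic length and GC content ended 7. Some of the 12 lay farther from 0 in WT libraries, among them Grin2a in the amygdala (-0.58 against -0.46). Others lay nearer, among them Grin2b in the cortex (-0.16 against -0.45). With fewer libraries, an ended call does not by itself show a smaller difference. Calls that did not survive the offsets are named with their values under each gene. The offsets also added 5 calls, which are given there as well.

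**Figure D2:**
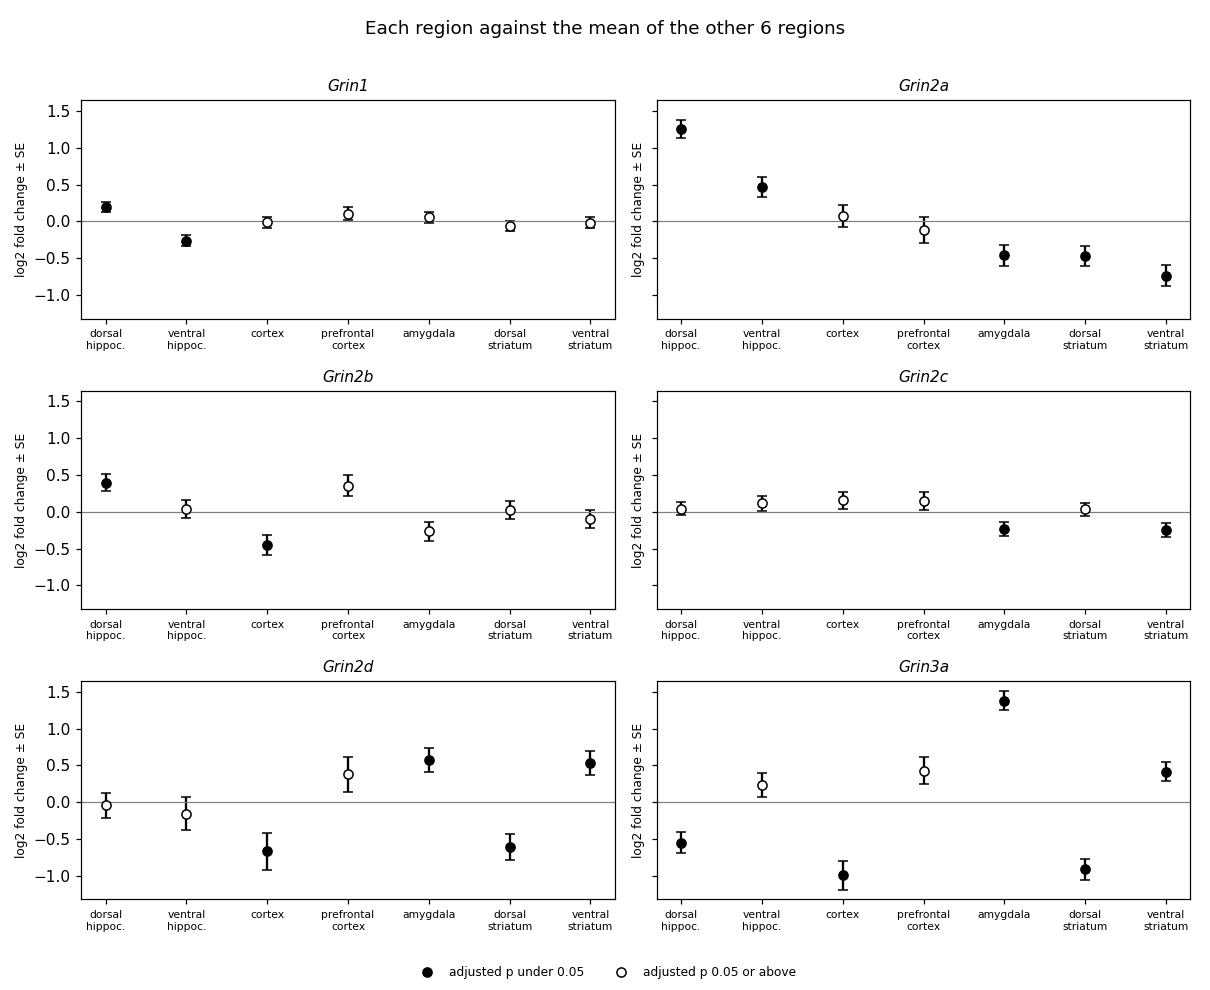
log2 fold change of each region against the mean of the other 6 regions, with the standard error of the edgeR fit over 78 libraries; filled points passed an adjusted p of 0.05. Grin2a in the dorsal hippocampus (1.25) and Grin3a in the amygdala (1.38) lay farthest above 0.

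Grin1, the obligatory subunit, varied least. Its region means ran from 521 ± 44.1 CPM (SD, n = 12) in the dorsal hippocampus to 415 ± 59.9 CPM (n = 12) in the ventral hippocampus, a ratio of 1.26. Dorsal hippocampus libraries had a low of 432, a median of 525 and a high of 591 CPM, and ventral hippocampus libraries 299, 428 and 513 CPM, so the groups overlapped. The dorsal hippocampus was higher than the other regions by 0.19 ± 0.07 on the log2 scale (SE, adjusted p = 0.0244 by edgeR), and the ventral hippocampus was lower, at -0.26 ± 0.08 (adjusted p = 0.00627 by edgeR). Neither held with the length and GC offsets (0.063 and -0.14, adjusted p = 0.457 and 0.112 by edgeR), under which the cortex (0.19, adjusted p = 0.0167) and the prefrontal cortex (-0.25, adjusted p = 0.0157) passed instead. Both calls also ended in WT libraries only (0.17 and -0.31, adjusted p = 0.346 and 0.0908 by edgeR). The dorsal hippocampus call ended with column totals and without mouse 4, 5, 12 or 13 as well. No neighbouring pair in the order of the 7 region means passed the test.

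Grin2a, the glutamate-binding subunit that increases as synapses mature, had the clearest hippocampal peak. Dorsal hippocampus libraries had a low of 144, a median of 369 and a high of 545 CPM. The lowest of these was the library of female WT mouse 23, whose hippocampal markers were also low, and the other 11 libraries began at 284 CPM, above the median of every other region. The dorsal hippocampus stood 1.25 ± 0.12 above the other regions on the log2 scale, a 2.38-fold difference (adjusted p = 9.97e-14 by edgeR).

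The ventral hippocampus came second for Grin2a, with a low of 172, a median of 252 and a high of 309 CPM and a log2 difference of 0.47 ± 0.14 (adjusted p = 0.00756 by edgeR). Dorsal and ventral hippocampus differed by 0.67 ± 0.18 on the log2 scale (adjusted p = 0.00484), the only neighbouring pair for Grin2a that passed, across the deeper and the shallower set of libraries. The order then ran through cortex (187 ± 46.8 CPM, n = 11), prefrontal cortex (171 ± 29.6, n = 8), amygdala (139 ± 46.5, n = 11), dorsal striatum (137 ± 65.4, n = 12) and ventral striatum (120 ± 43.4, n = 12), with no neighbours that passed. The ventral striatum was lower than the other regions by -0.74 ± 0.14 (adjusted p = 1.47e-05), the dorsal striatum by -0.47 ± 0.14 (adjusted p = 0.0036) and the amygdala by -0.46 ± 0.15 (adjusted p = 0.00985). In WT libraries only, the ventral hippocampus (0.51, adjusted p = 0.136), the dorsal striatum (-0.56, adjusted p = 0.0668) and the amygdala (-0.58, adjusted p = 0.144) did not pass, and neither did the amygdala without mouse 12 (-0.37, adjusted p = 0.0517). With the length and GC offsets the cortex passed as well (0.37, adjusted p = 0.0285).

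Within the dorsal striatum, 2 libraries set the spread of Grin2a. Male KO mouse 10 had 280 CPM and female WT mouse 23 had 265 CPM, and the other 10 libraries had 77.4 to 141 CPM. Both are libraries that stand apart by their low striatal markers, and their cortical excitatory neuron markers summed to 2374 and 2367 CPM against a region median of 448 CPM. Without the libraries that stand apart, the dorsal striatum mean was 110 ± 18.3 CPM (n = 10) and its difference from the other regions was -0.77 (adjusted p = 5.26e-07 by edgeR). Over all 78 libraries, deviations from region means correlated with those of the cortical excitatory markers at 0.75 for Grin2a and 0.60 for the ratio of Grin2a to Grin2b (Pearson r, as a description). For both, this was the highest r among the marker lists. The part of those markers in the levels of Grin2a was not tested.

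Grin2b, the glutamate-binding subunit that prevails early in development, spanned a 1.64-fold range of region means, from 450 ± 99.2 CPM (n = 8) in the prefrontal cortex to 274 ± 73.1 CPM (n = 11) in the cortex. Dorsal hippocampus libraries ran from 186 through a median of 454 to 625.2 CPM, and cortex libraries from 177 through 252 to 402 CPM, so the groups overlapped. The dorsal hippocampus was higher by 0.40 ± 0.12 (adjusted p = 0.00434 by edgeR) and the cortex lower by -0.45 ± 0.13 (adjusted p = 0.00438). The cortical difference fell to -0.11 with the length and GC offsets (adjusted p = 0.43) and was -0.16 in WT libraries only (adjusted p = 0.672). The dorsal hippocampus did not pass in WT libraries only either (0.32, adjusted p = 0.265). The prefrontal cortex missed the threshold at 0.36 ± 0.14 (adjusted p = 0.0531) and passed with the mouse as a block (0.41, adjusted p = 0.0305). With the length and GC offsets the ventral striatum passed (-0.29, adjusted p = 0.0157, against -0.10 without them). No neighbours in the order passed.

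Grin2c, whose product is best known from cerebellar granule cells, had region means from 60.1 ± 17.2 CPM (n = 8) in the prefrontal cortex to 46.7 ± 9.60 CPM (n = 12) in the ventral striatum, a ratio of 1.29. Ventral striatum libraries ran from 30.3 through 47.6 to 62.3 CPM and prefrontal cortex libraries from 39.1 through 54.4 to 91.4 CPM. The ventral striatum (-0.25 ± 0.09, adjusted p = 0.0218 by edgeR) and the amygdala (-0.24 ± 0.10, adjusted p = 0.0436) were lower than the other regions. The first of these was -0.0093 with the length and GC offsets (adjusted p = 0.941) and did not pass without the libraries that stand apart (-0.20, adjusted p = 0.0703). The amygdala call was lost in 8 of 12 fits that left out a mouse, and with the offsets it stood at -0.46 (adjusted p = 1.47e-05). The offsets also brought the dorsal striatum past the threshold (0.35, adjusted p = 1.14e-04, against 0.033 without them). Neither the ventral striatum (-0.34, adjusted p = 0.0756) nor the amygdala (-0.25, adjusted p = 0.34) passed in WT libraries only.

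Grin2d, a glutamate-binding subunit of interneurons and subcortical neurons, was the least abundant member and varied more. Its region means were 23.2 ± 10.7 CPM (n = 11) in the amygdala and 23.02 ± 11.6 CPM (n = 12) in the ventral striatum, and 10.9 ± 4.84 CPM (n = 12) in the dorsal striatum and 10.6 ± 1.71 CPM (n = 11) in the cortex. Amygdala libraries ran from 9.41 through 21.8 to 52.2 CPM and cortex libraries from 7.55 through 10.8 to 13.3 CPM. The ventral striatum was higher by 0.53 ± 0.16 (adjusted p = 0.00418 by edgeR) and the amygdala by 0.58 ± 0.16 (adjusted p = 0.00375). The dorsal striatum (-0.61 ± 0.17, adjusted p = 0.00228) and the cortex (-0.67 ± 0.26, adjusted p = 0.0277) were lower. The cortex call rests on few counts, since 3 counts equal 2.44 to 4.76 CPM in the shallower libraries. With the length and GC offsets the amygdala stood at 0.34 (adjusted p = 0.105) and the dorsal striatum at -0.18 (adjusted p = 0.405), and without the libraries that stand apart the cortex stood at -0.58 (adjusted p = 0.0502). Neither the amygdala (0.67, adjusted p = 0.0684 by edgeR), the dorsal striatum (-0.59, adjusted p = 0.067) nor the cortex (-0.94, adjusted p = 0.076) passed in WT libraries only. Within regions, Grin2d deviated together with summed thalamic markers (Pearson r = 0.74 over 78 libraries, as a description), the highest r among the marker lists. The part of those markers in the levels of Grin2d was not tested.

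Grin3a, the glycine-binding modulatory subunit, had the widest range, with a ratio of 4.16 between the highest and the lowest region mean. Amygdala libraries had a low of 42.6, a median of 97.5 and a high of 164 CPM, and cortex libraries 11.5, 24.8 and 41.1 CPM, so these groups did not overlap. The amygdala exceeded the other regions by 1.38 ± 0.13 on the log2 scale, a 2.61-fold difference (adjusted p = 2.49e-14 by edgeR). All 11 amygdala libraries stayed in the fit without the libraries that stand apart, as no own-marker limit was applied to them.

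The ventral striatum was also higher for Grin3a (0.41 ± 0.13, adjusted p = 0.00673 by edgeR). This did not hold with the length and GC offsets (0.26, adjusted p = 0.0945) or without mouse 13 (0.26), whose ventral striatum library stands apart and held 125 CPM. The cortex (-0.99 ± 0.19, adjusted p = 1.89e-05), the dorsal striatum (-0.91 ± 0.15, adjusted p = 2.16e-07) and the dorsal hippocampus (-0.55 ± 0.14, adjusted p = 0.0011) were lower. In the order of means, the amygdala (101 ± 37.7 CPM, n = 11) differed from the prefrontal cortex (58.5 ± 14.03, n = 8) by 0.82 ± 0.21 on the log2 scale (adjusted p = 0.00369), and the ventral hippocampus (51.5 ± 15.6, n = 12) from the dorsal hippocampus (31.1 ± 6.62, n = 12) by 0.67 ± 0.19 (adjusted p = 0.0096). The other neighbours did not pass. Both pairs that passed cross the depth sets, and without the libraries that stand apart the dorsal hippocampus also exceeded the dorsal striatum (0.40, adjusted p = 0.0482).

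Over the 21 pairs of regions, Grin3a passed in 15, Grin2a in 12, Grin2d in 10, Grin2b in 6, Grin1 in 4 and Grin2c in 3 by edgeR. Among the 9 pairs within a depth set, Grin3a passed in 7, Grin2d in 6, Grin2a and Grin2b in 3 each, Grin1 in 2 and Grin2c in 0. Over all genes, the share called per pair had a median of 39.4%. For the amygdala it was 39.4% against the cortex, 36.1% against the dorsal hippocampus, 52.1% against the dorsal striatum, 20.8% against the prefrontal cortex, 23% against the ventral hippocampus and 42.9% against the ventral striatum.

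For the cortex the share of all genes called was 41.4% against the dorsal hippocampus, 51.2% against the dorsal striatum, 30.2% against the prefrontal cortex, 22.8% against the ventral hippocampus and 53.4% against the ventral striatum. For the dorsal hippocampus it was 51.2% against the dorsal striatum, 32.3% against the prefrontal cortex, 17.1% against the ventral hippocampus and 50.2% against the ventral striatum. The striatal regions differed least from each other, at 12.8%. The dorsal striatum had 43.2% against the prefrontal cortex and 47.7% against the ventral hippocampus, the ventral striatum 39.2% and 47.3% against the same regions, and these last 2 had 23.6% against each other. In dorsal minus ventral hippocampus, the pair with the second lowest share, Grin1 (0.39, adjusted p = 0.00192), Grin2a (0.67, adjusted p = 0.00484) and Grin3a (-0.67, adjusted p = 0.0096) passed by edgeR. In dorsal minus ventral striatum, the pair with the lowest share, Grin2d (-0.98, adjusted p = 6.44e-04) and Grin3a (-1.14, adjusted p = 2.59e-06) passed.

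The ratio of Grin2a to Grin2b counts was taken within each library, which removes its depth. The ratio was highest in the dorsal hippocampus, with a low of 0.751, a median of 0.831 and a high of 0.979 over 12 libraries. Cortex libraries had 0.571, 0.696 and 0.817, and ventral hippocampus libraries 0.548, 0.636 and 0.953. Medians were lower in the amygdala (0.428), the prefrontal cortex (0.356), the dorsal striatum (0.339) and the ventral striatum (0.327). Per length of merged exon, the mean ratio was 1.16 ± 0.08 (n = 12) in the dorsal hippocampus, 0.96 ± 0.13 (n = 11) in the cortex and 0.93 ± 0.17 (n = 12) in the ventral hippocampus. Single libraries reached 1.13 in the cortex and 1.32 in the ventral hippocampus. In the remaining regions the means ran from 0.49 in the ventral striatum to 0.63 in the amygdala. Which regions exceed 1 depends on the length chosen, since the longest transcripts have 14.63 kb for Grin2a and 24.06 kb for Grin2b.

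**Figure D3:**
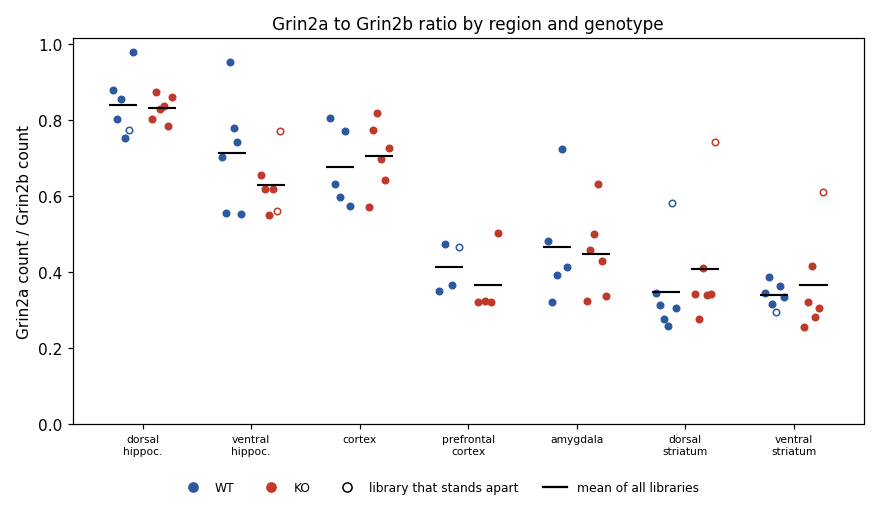
Grin2a count divided by Grin2b count in each library on a linear axis, by region and genotype, with means as bars and libraries that stand apart as open points. The dorsal hippocampus, cortex and ventral hippocampus lay above the striatal regions, where the open points of mouse 10 in both regions and of mouse 23 in the dorsal striatum lay highest.

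Within mice, 14 of the 21 pairs of regions differed in this ratio by a two-sided exact sign-flip permutation test with adjustment over 21 pairs. The dorsal hippocampus exceeded the ventral striatum by 1.28 ± 0.33 on the log2 scale (SD over 12 mice) and was higher in 12 of 12 mice (adjusted p = 0.00256 by the exact permutation test). It also exceeded the dorsal striatum in 12 of 12 mice (1.22 ± 0.47, exact permutation adjusted p = 0.00256) and the ventral hippocampus in 10 of 12 (0.33 ± 0.29, exact permutation adjusted p = 0.00653). The cortex exceeded the prefrontal cortex in 7 of 7 mice (0.86 ± 0.38, exact permutation adjusted p = 0.0234).

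The pairs that did not pass were those among the amygdala, the prefrontal cortex, the dorsal striatum and the ventral striatum, and the cortex against the ventral hippocampus. The last of these differed by 0.07 ± 0.32 over 11 mice (exact permutation adjusted p = 0.505). With WT mice alone no pair could pass, since 3 to 6 mice per pair allow no adjusted p below 0.0938 by this exact permutation test.

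The comparison of KO and WT mice asks whether loss of ACSS2 altered these genes in drinking mice. In fits of both sexes with sex as a term, 0 of 6 members passed in each of the 7 regions by edgeR, where few genes were called at all. Acss2 was the only gene called in 6 regions, which is 0.00947% of genes in the cortex, 0.00657% in the amygdala, 0.0069% in the dorsal hippocampus, 0.00689% in the dorsal striatum, 0.00929% in the ventral hippocampus and 0.00708% in the ventral striatum. In the prefrontal cortex 11 genes were called, or 0.0925%. At an unadjusted p under 0.05 there were 2 members in the cortex, 2 in the ventral striatum, 1 in the prefrontal cortex and 0 in the other 4 regions, beside 6.46%, 7.29% and 8.63% of all genes in the first 3 and 3.52%, 2.84%, 1.54% and 5.01% in the amygdala, dorsal hippocampus, dorsal striatum and ventral hippocampus. DESeq2 called 0 members in each region as well. These p-values measure only the spread between these mice.

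**Figure D4:**
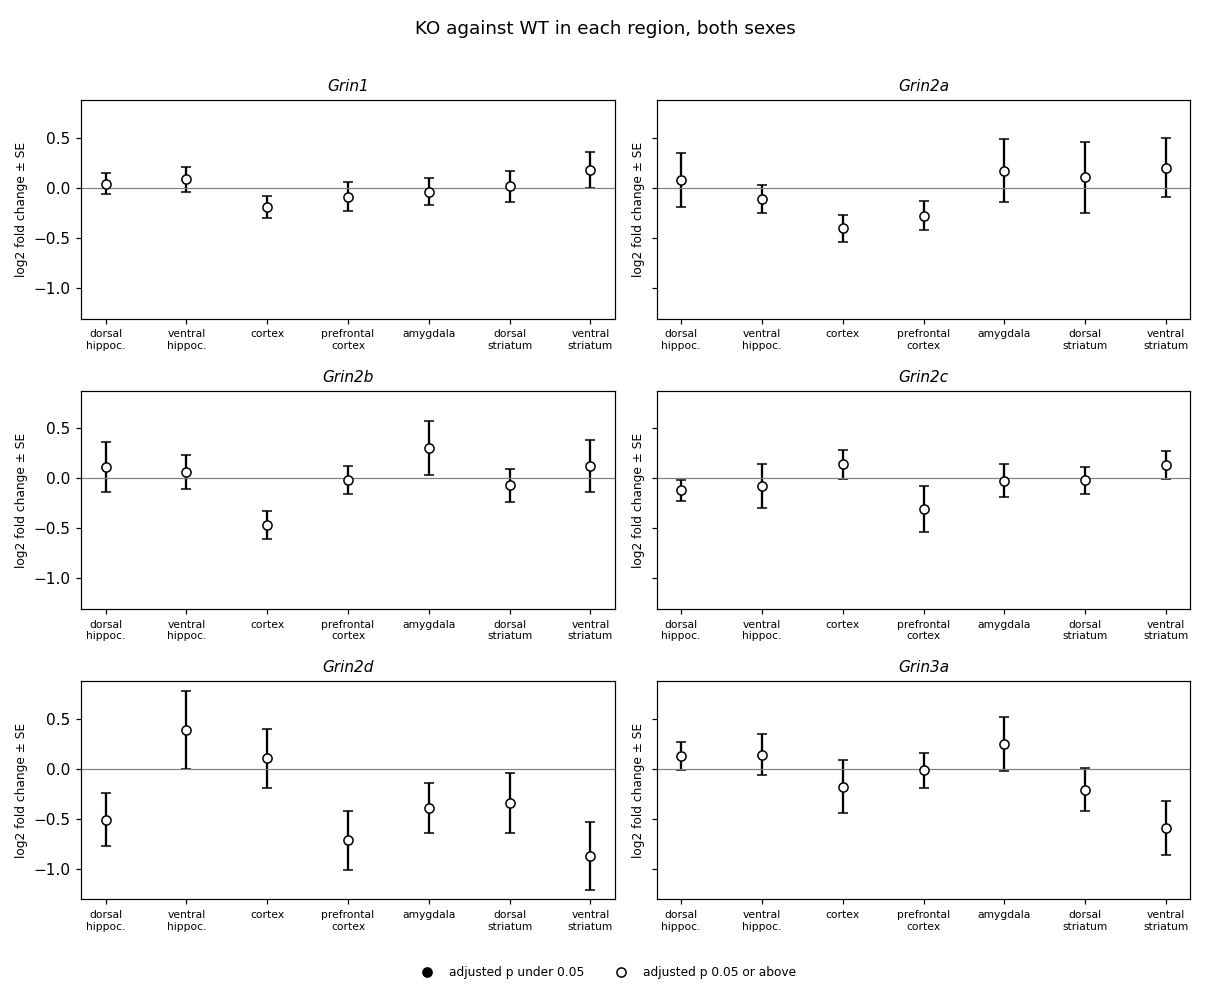
log2 fold change of KO over WT in each region with both sexes in the fit, with the standard error of the edgeR fit; open points did not pass an adjusted p of 0.05. No member passed in any of the 7 regions, and the values farthest from 0 were those of Grin2d in the ventral striatum (-0.87) and the prefrontal cortex (-0.72).

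In the cortex, KO libraries had 177 to 297 CPM of Grin2b (median 240, n = 6), and the 5 WT libraries had 214, 288, 336, 374 and 402 CPM. The ranges overlapped. The log2 fold change was -0.47 ± 0.14, with a 95% interval of -0.76 to -0.18 and an adjusted p of 0.747 by edgeR. Without the low-count filter the same gene passed (-0.47, adjusted p = 0.0262 by edgeR). The fold change was unchanged, so this pass came with the change of fit and not with a larger difference. The share of all genes called in that fit is not given here. Grin2a was at -0.40 ± 0.13 (adjusted p = 0.747 by edgeR), with KO libraries at 124 to 195 CPM and WT libraries at 172 to 288 CPM.

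The sexes were also fitted apart. In the cortex, female KO libraries had 177, 231 and 194 CPM of Grin2b, and female WT libraries had 402 and 336 CPM, with no overlap. The log2 fold change was -0.88 ± 0.15 (adjusted p = 0.0421 by edgeR, n = 3 and 2), the only member call of the 13 comparisons by sex and region, in a comparison that called 0.0398% of 10044 genes. In the other 12, the share of genes called was 0.452% in the female prefrontal cortex, 0.00707% in the female and 0.00721% in the male dorsal hippocampus, 0.00993% and 0.00996% in the female and male ventral hippocampus, 0.0103% in the male cortex, 0.00706% in the male amygdala and 0% in the rest. Male KO libraries had 297, 252 and 248 CPM and male WT libraries 214, 288 and 374 CPM, which overlapped. The sex-by-genotype interaction did not pass for Grin2b (0.74 ± 0.24, adjusted p = 0.893 by edgeR), so a difference between the sexes was not shown.

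The female cortical call for Grin2b went along with a bias of the libraries toward long, AT-rich transcripts. This bias was measured as the median deviation of 1464 long AT-rich genes less that of 989 short GC-rich genes. Female KO libraries stood at -0.16, -0.25 and -0.24 and female WT libraries at 0.05 and 0.23. With offsets for exonic length and GC content, Grin2b was at -0.56 (adjusted p = 0.44 by edgeR), and the part of the bias in the call was not tested further. The cortex library of KO mouse 4 also held 1134 CPM of choroid plexus markers against a region median of 9.30 CPM. Leaving out mouse 4, 5, 6 or 11 also ended the call. Over all fits that left out a mouse, log2 fold changes ran from -0.99 without mouse 24 to -0.75 without mouse 11. Each of these extremes had a single WT library left. In the same comparison Grin2a was at -0.63 ± 0.16 (adjusted p = 0.188) and Grin3a at -1.04 ± 0.32 (adjusted p = 0.277), and Grin2d was too low to be tested.

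**Figure D5:**
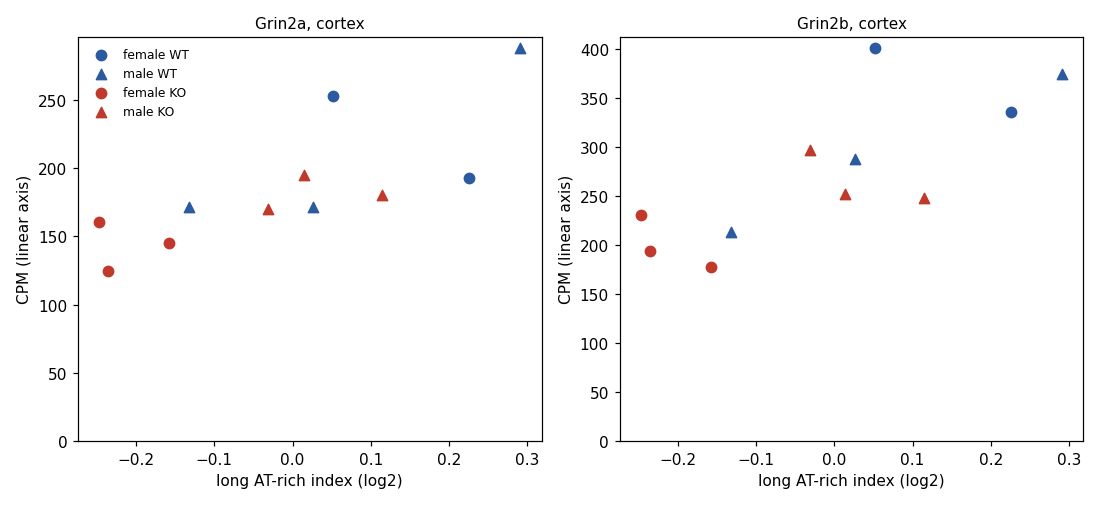
CPM of Grin2a and Grin2b in the 11 cortex libraries on a linear axis against the index of long AT-rich over short GC-rich genes (log2), with circles for females, triangles for males and colours for genotype. The 3 female KO libraries lay at the left, from -0.25 to -0.16, with Grin2b at or below 231 CPM.

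In the ventral striatum, the log2 fold changes of Grin2d and Grin3a were negative without passing the threshold. For Grin2d, male KO libraries had 18.3, 9.25 and 20.1 CPM and male WT libraries 26.8, 28.9 and 47.1 CPM, with no overlap. The highest was that of mouse 13, which stands apart, and thalamic markers summed to 130, 209 and 611 CPM in the male WT libraries and to 77.7, 99.3 and 158 CPM in the male KO libraries. Their part in the difference was not tested. Female KO libraries had 23.7, 20.9 and 4.6 CPM and female WT libraries 39.03, 16.7 and 20.8 CPM, which overlapped. Over both sexes the log2 fold change was -0.87 ± 0.34 (adjusted p = 0.651 by edgeR), and in males -1.08 ± 0.32 (adjusted p = 0.493), or -0.78 (adjusted p = 0.743) and -0.96 (adjusted p = 0.253) without the libraries that stand apart.

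For Grin3a in the ventral striatum, male KO libraries had 36.5, 52.4 and 46.4 CPM and male WT libraries 49.9, 66.9 and 125 CPM, overlapping between 49.9 and 52.4 CPM. The log2 fold change was -0.59 ± 0.27 over both sexes (adjusted p = 0.651 by edgeR) and -0.80 ± 0.33 in males (adjusted p = 0.499). The highest value, 125 CPM, was that of male WT mouse 13, whose thalamic markers (611 CPM) compare with a region median of 118 CPM. Oligodendrocyte precursor and cerebellar granule cell markers in that library summed to 122 and 57.5 CPM against medians of 86.7 and 7.52 CPM. Of the granule cell list, Gabra6 had a count in 19 of 78 libraries and a median of 0 CPM, while Cbln1 had a median of 6.03 CPM. Rora and Slc17a6 had the highest medians of the thalamic list (48.3 and 30.9 CPM), above Tcf7l2 (6.30) and Lef1 (4.10). Within regions, Grin3a correlated with the thalamic, oligodendrocyte precursor and granule cell lists at 0.34, 0.59 and 0.44 (Pearson r over 78 libraries, as a description). These lists were not the only ones: for Grin3a the amygdala-enriched list stood at 0.35 and the striatal projection neuron list at -0.34. The part of these markers in its levels was not tested. Without the libraries that stand apart, Grin3a in males was at -0.34 (adjusted p = 0.622). Grin1 in the male ventral striatum was at 0.45 ± 0.18 (adjusted p = 0.496).

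In the prefrontal cortex, Grin2d was counted at 8.88 to 21.1 CPM in the 4 KO libraries and at 16.9 to 31.8 CPM in the 4 WT libraries. The log2 fold change was -0.72 ± 0.30 (adjusted p = 0.482 by edgeR) over both sexes and -1.04 ± 0.35 (adjusted p = 0.289) in females, on 10 to 39 counts per library. One of the female WT libraries is the one with Ddx3y. In females, Grin2a was at -0.36 ± 0.17 in the prefrontal cortex (adjusted p = 0.549) and -0.35 ± 0.16 in the ventral hippocampus (adjusted p = 0.996).

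In the interaction of sex and genotype, 0 of 6 members passed by edgeR in each of the 6 regions tested, where 0% of all genes were called. At an unadjusted p under 0.05 there were Grin2b (0.74) and Grin3a (1.54) in the cortex, where 5.41% of all genes reached it, Grin1 (0.66) in the dorsal striatum, where 4.76% did, and Grin2b (0.69) and Grin2c (-0.87) in the ventral hippocampus, where 6.63% did. No member reached it in the amygdala, dorsal hippocampus or ventral striatum, where 4.42%, 1.33% and 3.84% of all genes did.

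The Grin2a to Grin2b ratio did not pass the threshold between KO and WT mice in any of the 7 regions by a two-sided exact permutation test within sex. In the dorsal hippocampus the mean ratio was 0.830 ± 0.034 (SD, n = 6) in KO and 0.840 ± 0.083 (n = 6) in WT libraries (exact permutation adjusted p = 0.9). In the cortex it was 0.704 ± 0.089 (n = 6) and 0.675 ± 0.105 (n = 5), so the lower cortical values of both genes in KO libraries left their ratio within the spread (exact permutation adjusted p = 0.9). The smallest adjusted p of the 7 was 0.583, in the prefrontal cortex and the ventral hippocampus.

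A list of 50 partners and downstream genes of the receptor was described beside the members, of which 48 were tested between regions. In the dorsal hippocampus 20 were higher and 7 lower, beside 21.5% and 19% of all genes, led by Ephb2 (1.17), a receptor tyrosine kinase that binds NMDA receptors, and Ptk2b (1.03), a calcium-activated kinase. In the dorsal striatum 12 were higher and 21 lower, beside 29.8% and 23.9% of all genes, with the actin cross-linker Actn2 at 2.26 and the phosphatase gene Ptpn5 at 1.38, and Shank1, a scaffold gene, at -1.12. In the ventral striatum 8 were higher and 20 lower, beside 27.1% and 24% of all genes, with Dlgap1, a scaffold gene, at -1.29 and the kinase gene Camk2a at -1.20. Actn2 (1.58) and Ptpn5 (1.04) were the highest of the list there too.

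In the amygdala 5 of the list were higher and 9 lower, beside 19.7% and 14.6% of all genes, led by Camk2d at 1.89 and the nitric oxide synthase gene Nos1 at 1.13. In the cortex 19 were higher and 13 lower, beside 21% and 23.2% of all genes, with Nos1 at -2.06. The counts were 9 and 5 in the prefrontal cortex, beside 14.8% and 11.9% of all genes, and 10 and 6 in the ventral hippocampus, beside 13.2% and 11.9%. Between KO and WT mice, 0 of the 48 passed in each of the 7 regions by edgeR, and at an unadjusted p under 0.05 the largest numbers were 1 higher and 7 lower in the prefrontal cortex and 1 higher and 6 lower in the cortex, beside 8.63% and 6.46% of all genes. The median log2 fold change of the list ran from -0.057 in the cortex to 0.14 in the ventral striatum.

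Over all 78 libraries, the genes most like each member by Pearson correlation of log2 CPM among 15657 genes were Dagla for Grin2a (0.90), Wdr6 for Grin3a (0.89), Atrx for Grin2b (0.84), Cx3cl1 for Grin1 (0.74), Slc6a11 for Grin2d (0.71) and Ppp1r9b for Grin2c (0.67). Among the members themselves, Grin2a and Grin2b correlated at 0.63 over all libraries and at 0.78 as deviations from region means. Grin2d and Grin3a correlated at 0.60 and 0.44. These values describe libraries that share mice, depth sets and base composition.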

How the data were processed

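The authors deposited raw read counts per gene symbol, 1 table for each sex, and these whole-number counts were used as deposited. The submitters' processing notes name STAR 2.5.2a, SAMtools 1.1, HTSeq 0.6.1, DESeq2 and R 4.0.2, and the builds GRCm38 and mm10, without their roles. Per the labels' protocols, poly(A) RNA was selected and the library kit does not mark strand, so reads of Grin1 and the overlapping antisense gene Grin1os (at most 2.49 CPM) cannot be told apart. Groups and mouse numbers came from the labels. Positions, merged exon lengths and GC content came from a lookup by symbol in GENCODE M21, with 53186 unique matches, and may differ from the authors' annotation.

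Tests used edgeR 4.0.16 in R 4.3.3 (TMM, quasi-likelihood, low-count filter with a minimum count of 10 and a minimum total of 15), with Benjamini-Hochberg adjustment over all genes tested. Region fits had sex by genotype as a term. KO against WT was fitted per region with sex as a term, and per sex and region except in the male prefrontal cortex, which has 1 KO library. Alternatives were DESeq2 1.42.0, its size factors, column totals, no filter, the mouse as a block, WT libraries only, regions of 1 depth set, and leaving out each mouse. Loess offsets (span 0.5, log2 CPM with a prior count of 2) for length and GC, and fits without the libraries that stand apart (own markers below the region median divided by 3, striatal, hippocampal or cortical neuron markers of another region above 10 times it, or Ddx3y above 10 CPM in a female), were chosen after seeing the data. Same-numbered libraries come from the same mouse per the labels, which is the source of the pairing, and over 210 pairs of such libraries deviations from group means correlated at 0.01 on average, against -0.01 for 423 pairs from other mice of the same group. The fits were tested on simulated data.

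The members and the gene lists were chosen with earlier results of these data known. All 6 members are named between regions, and between genotypes each member with an unadjusted p under 0.05. Of the partner list, the highest and lowest genes past the threshold per region were eligible to be named.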

Additional observations from a re-analysis of the deposited data

Results flagged for a closer look

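Values were compared within each region and genotype for the 6 genes and the Grin2a to Grin2b ratio, and 10 values from 8 libraries lay apart from the rest of their group by Dixon's criterion, out of 98 groups of values tested. Chance marks about 1 in 20 groups. In the dorsal striatum, KO mouse 10 had 280 CPM of Grin2a, with the other 5 KO libraries at 104 to 141 CPM, and WT mouse 23 had 265 CPM, with the others at 77.4 to 129 CPM. Their Grin2a to Grin2b ratios were 0.741 (others 0.274 to 0.410) and 0.581 (others 0.256 to 0.345), and both libraries had low striatal markers. In the prefrontal cortex, KO mouse 6 had a ratio of 0.501, with the other 3 at 0.320 to 0.322.

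Grin2b stood at 577 CPM in the amygdala of KO mouse 10 (others 224 to 355 CPM) and at 549 CPM in the ventral striatum of KO mouse 2 (others 297 to 354 CPM). Grin1 stood at 538 CPM in the cortex of KO mouse 5 (others 397 to 444 CPM). In the dorsal hippocampus, Grin2c stood at 70.4 CPM in KO mouse 10 (others 44.5 to 50.1 CPM) and Grin3a at 46.1 CPM in KO mouse 4 (others 26.5 to 33.7 CPM).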

How the results depend on the processing

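The shares of all genes called in the alternative fits of this section are not given here, so its counts are no result about the members. In WT libraries only, 1 member was called in each of the amygdala, cortex and dorsal striatum, 2 for dorsal hippocampus and 0 for ventral hippocampus. Of the ratio pairs, 0 passed in WT mice, which says nothing of stability. So few mice allow no adjusted p below 0.0938 by the exact permutation test. In the prefrontal cortex the main count of 0 became 1 with DESeq2 size factors, with the replicate block by mouse, with length and GC offsets or without the libraries that stand apart, and 2 with the DESeq2 Wald test or column totals. The block changed no other call of a region against the rest. For the ratio, no replicate block meant that 15 pairs passed in place of 14. The offsets left 1 member in the ventral hippocampus and 0 in the female cortex, and without a low-count filter 1 was called in the cortex of KO mice. Leaving out each mouse gave 0 to 1 calls in the female cortex, 2 to 4 in the amygdala, 0 to 2 in the prefrontal cortex and 2 to 4 in the ventral striatum. Each value that changed sign had not passed its threshold in the reported fit. With the offsets these log2 differences were, for Grin1, 0.19 in the cortex, -0.050 in the amygdala, 0.11 in the dorsal striatum, -0.25 in the prefrontal cortex and 0.082 in the ventral striatum. The cortical and prefrontal values of Grin1 passed the threshold. The differences were -0.090 and -0.19 for Grin2c in the dorsal hippocampus and prefrontal cortex, -0.13 for Grin2b in the dorsal striatum and -0.11 for Grin2d in the prefrontal cortex. Grin1 in the cortex was 0.022 with DESeq2 size factors, 0.021 with the Wald test and 0.11 in WT libraries, where Grin2d in the dorsal hippocampus was 0.071, and Grin1 in the ventral striatum was 0.018 without a filter. With column totals, Grin2b and Grin2c in the dorsal striatum were -0.011 and -0.0043. Without the libraries that stand apart, Grin2b and Grin2c in the dorsal striatum were -0.042 and -0.068 and Grin1 in the ventral striatum 0.051. Of neighbouring regions, that setting gave -0.046 for Grin1 in cortex minus ventral striatum, -0.060 and -0.0072 for Grin2a and Grin2b in dorsal minus ventral striatum, and -0.043, -0.047 and -0.051 for Grin2c in prefrontal cortex and in cortex minus ventral hippocampus and in amygdala minus ventral striatum. It gave 0.057 and 0.050 for Grin2d and Grin3a in cortex minus dorsal striatum. With the replicate block, amygdala minus dorsal striatum was -0.0063 for Grin2a, dorsal hippocampus minus prefrontal cortex -0.030 and dorsal striatum minus ventral hippocampus 0.0024 for Grin2b, and prefrontal cortex minus ventral hippocampus -0.019 for Grin2c. The log2 ratio was -0.050 for cortex minus ventral hippocampus and -0.025 for dorsal minus ventral striatum in WT mice, and without the libraries that stand apart -0.0024 for the latter and -0.17 for KO minus WT in the ventral striatum. Leaving out each mouse, Grin1 ran from -0.074 to 0.027 in the cortex and from -0.082 to 0.036 in the ventral striatum, Grin2a from -0.042 to 0.12 in the cortex, Grin2b from -0.042 to 0.076 in the dorsal striatum, and Grin2c from -0.020 to 0.085 and Grin2d from -0.18 to 0.040 in the dorsal hippocampus. The KO minus WT log2 ratio ran from -0.29 to 0.11 in the amygdala, -0.046 to 0.040 for dorsal hippocampus and -0.14 to 0.17 in the ventral striatum. Where a fit left 1 library in an arm, that library is assumed to vary like the others. The cause of these changes was not tested. Depth limits Grin2d most. It had 10 to 39 counts per library in the prefrontal cortex, at 8.88 to 31.8 CPM. It was lower in the cortex, at 7.55 to 13.3 CPM, and had a low of 4.96 CPM in the ventral hippocampus. In the shallower libraries, 3 counts equal 2.44 to 4.76 CPM.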
